A study of Mus musculus with 6 samples.

Results

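The AMPA and NMDA receptor subunits are the channel-forming proteins of fast excitatory synapses, and their transcripts were examined in the brains of mice lacking melanotransferrin. The members were 10 subunit genes, Gria1, Gria2, Gria3 and Gria4 for AMPA receptors and Grin1, Grin2a, Grin2b, Grin2c, Grin2d and Grin3a for NMDA receptors. Every probe set annotated to exactly 1 of these symbols was kept apart and none was dropped for low signal. On this array a transcript is read by a probe set, several short probes whose signals are combined. This gave 21 probe sets for 9 of the 10 genes, out of 45037 probe sets on the array that are not controls, with 10 for AMPA and 11 for NMDA subunits. Grin1, which encodes the subunit every NMDA receptor needs, had no probe set under its symbol in the annotation used and is not analysed here. In the text the probe sets of a gene are numbered by brightness, with 1 the brightest.

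Total RNA of whole brain was hybridised to 1 Affymetrix Mouse Genome array per mouse. The knockout group held 4 MTf -/- mice, with the strain labelled C57BL/6 - Lucy, and the wild-type group 2 MTf +/+ mice labelled C57BL/6. All 6 were females of 123 days from the same litter, and the labels name no treatment. Each array is a separate mouse, so p-values rest on the spread between mice, array noise included. The sources used here do not say how the allele was made. Arrays are numbered in order of deposit, which only names them. The comparison asks which transcripts of the brain differ between these groups, which differ in melanotransferrin, an iron-binding membrane protein. The strain label changes with the genotype in every mouse, so effects of strain and genotype cannot be told apart.

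AMPA receptors are tetramers that open within milliseconds of glutamate binding and carry most of the fast excitatory current. Gria2 sets their calcium permeability, because RNA editing changes a residue in its pore. NMDA receptors open only when glutamate and a co-agonist are bound and the membrane is depolarised, and they admit the calcium that starts synaptic plasticity. Their Grin2 subunits differ by region and age. Grin2b leads in the young forebrain, and Grin2a joins it during maturation. Grin2c is prominent in cerebellar granule cells, and Grin2d is found in the midbrain, brainstem and some interneurons. Grin3a lowers calcium flow through the receptors it joins.

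The deposited values were signal intensities on a linear scale. The mean of the middle 96% of the values, computed here, lay between 995.2 and 996.2 on every array once controls were left out. Array wild type 1 was dimmer than the others, with 24.5% of its probe sets below a signal of 49.6 against 17.6% to 20.2% elsewhere. Array knockout 2 stood apart in genes of the cerebellum, described with Grin2c. Neuronal markers were bright on all arrays, with no signal under 4479 among 6 genes that include Snap25 and Rbfox3. The probe set of Meltf, the targeted gene, read 80.7, 133, 156 and 84.1 in knockouts 1 to 4, against 146.5 in wild type 1 and 229 in wild type 2, so the groups overlapped. The sources used here do not place its probes relative to the altered part of the gene, so it does not check the labels.

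No subunit probe set passed the test between knockout and wild type. In the limma fit over all 45037 probe sets, 0 of 21 had an adjusted p below 0.05, as did 0 of the 45037, a background of 0%. At an unadjusted p below 0.05 there were 3 of 21, or 14.3%, against a background of 6.76%. All 3 read higher in the knockout, where the background is 4.92%, and 0 read lower, where it is 1.84%. The 2 groups were fully separated for 4 of 21 probe sets. In all 4 the knockout was higher, against a background of 11.3% for that direction, and in 0 it was lower, against 4.81%. The median log2 fold change, knockout minus wild type, was 0.054 over the 21 probe sets and 0.078 over all probe sets. Single values were above 0 for 14 of 21, or 66.7%, where 60.3% of all probe sets were, and below 0 for 7, where 39.7% of all were. With each array centred on its median they were above 0 for 5 of 21, and for 15439 of all 45037 probe sets. In that setting 3 had an unadjusted p below 0.05 with the knockout higher, as did 802 of the 45037. Another 2, Gria4 probe set 1 and Grin3a probe set 1, had one with it lower, as did 3141 of the 45037. That is 23.8% in either direction, against 8.76% of all probe sets. The balance of higher and lower thus depended on scaling.

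**Figure D1:**
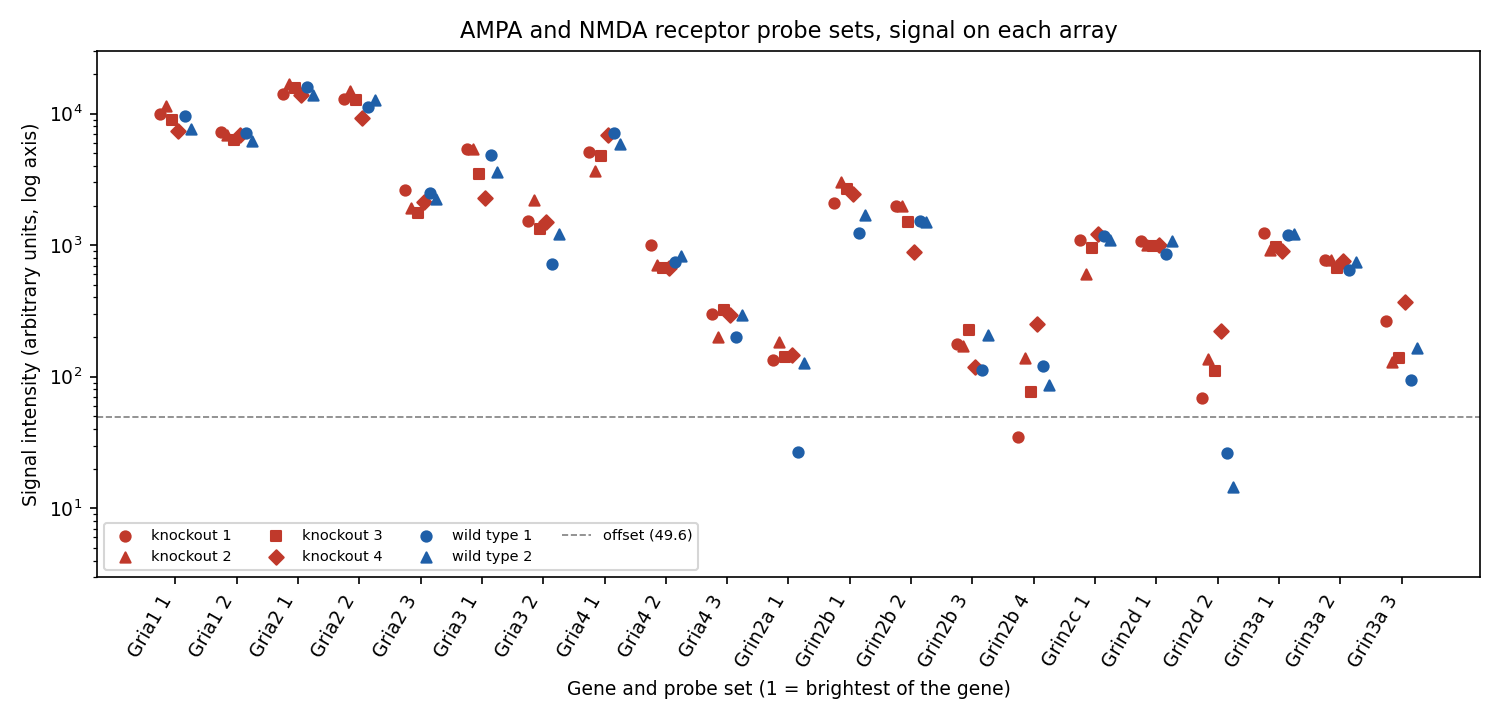
Signal intensity of the 21 probe sets on each of the 6 arrays (log axis), with knockouts in red and wild types in blue and a marker shape for each mouse of a group. The dashed line is the offset of 49.6 added before taking log2. Red and blue points overlap for 17 of 21 probe sets, and for Gria3 2, Grin2a 1, Grin2b 1 and Grin2d 2 every red point lies above both blue points.

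The signals were ordered by the brightest probe set of each gene, although probes bind with different strength, so the order is one of signals and not of transcript amounts. Gria2 was first, with a mean signal of 15034 ± 1254 (SD over the 6 arrays), and Gria1 followed with 9122 ± 1503. Their ranges over the 6 arrays did not overlap each other or that of Gria4. Gria4 and Gria3 came next with 5540 ± 1320 and 4162 ± 1228, overlapping ranges, and Gria4 above Gria3 on 4 of 6 arrays. On these probe sets all 4 AMPA genes were thus brighter than the first NMDA gene, Grin2b with 2195 ± 657, by their means. The ranges of Gria3 and Grin2b overlapped. Some dimmer AMPA probe sets had lower means than that of Grin2b, such as Gria3 probe set 2 with 1414 and Gria4 probe set 2 with 771. Grin3a, Grin2c and Grin2d lay close together with 1073 ± 159, 1024 ± 227 and 996 ± 79.9, and neighbouring ranges overlapped. Grin2a was last with 126 ± 52.4, at the 35.2 percentile of all probe sets, so its only probe set gave little signal.

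Gria1 and Gria2, the pair that forms most AMPA receptors of the adult forebrain, differed little between the groups. The brighter Gria1 probe set, 1448972_at, read 9924, 11376, 8874 and 7408 in knockouts 1 to 4, against 9567 in wild type 1 and 7582 in wild type 2. The wild types lay inside the knockout range, and the log2 fold change was 0.12 (SE, the standard error, 0.18), with a 95% interval from -0.28 to 0.53. On the dimmer one, 1435239_at, the spread was narrower, from 6140 to 7260 over the 6 mice, with a log2 fold change of 0.040 and an interval from -0.24 to 0.32.

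Gria2 on its brightest probe set, 1421970_a_at, read 14153, 16879, 15547 and 13878 in the knockouts and 15881 and 13862 in the wild types. The groups overlapped, with a log2 fold change of 0.022 (SE 0.15) and an interval from -0.30 to 0.35. Gria2 probe set 2 gave 0.054 and the dimmer probe set 3 gave -0.18, each with an interval that held 0. For both Gria1 probe sets and the brightest of Gria2 the sign turned when wild type 2 was left out, with -0.043, -0.071 and -0.076. Median centring moved every log2 fold change by -0.21, so these 3, which lay between 0 and that size, turned as well.

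Gria3, a subunit gene of the X chromosome, gave unlike values on its 2 probe sets. The dimmer one, 1420563_at, read 1536, 2184, 1320 and 1511 in knockouts 1 to 4, against 721 and 1211 in the wild types. Every knockout lay above both wild types, the lowest knockout by only 1320 against 1211. The means were 1638 ± 377 (SD, n = 4) and 966 ± 346 (SD, n = 2), a log2 fold change of 0.75 (SE 0.24) and a limma adjusted p of 0.738. Leaving out wild type 1, which had the lowest reading, gave 0.40, and leaving out wild type 2 gave 1.11.

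The brighter Gria3 probe set, 1434728_at, did not share this pattern. It read 5347, 5374, 3493 and 2295 in the knockouts and 4834 and 3626 in the wild types, so the knockouts spanned both wild types. Its log2 fold change was -0.10 (SE 0.31), and 0.10 without wild type 1. Knockout 2 had the highest value of both Gria3 probe sets, knockout 1 came next on both, and the order of the other mice differed.

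Gria4 is an AMPA subunit with rapid kinetics that is prominent in the cerebellum, thalamus and some interneurons. Its brightest probe set, 1435722_at, was lowest in knockout 2. It read 5071, 3634, 4729 and 6863 in knockouts 1 to 4, against 7068 in wild type 1 and 5875 in wild type 2. Knockouts 1, 2 and 3 lay below both wild types and knockout 4 between them. The means were 5074 ± 1341 (SD, n = 4) and 6472 ± 844 (SD, n = 2), a log2 fold change of -0.38 (SE 0.22) and an interval from -0.86 to 0.10 (limma adjusted p = 0.755). Without knockout 2 it was -0.23, without knockout 4 it was -0.53, and with median centring -0.59. The dimmer Gria4 probe sets 2 and 3 gave -0.054 and 0.14, and probe set 3 gave -0.093 without wild type 1. Probe set 2 was lowest in knockout 3, at 667 against 709 in knockout 2. Probe set 3 read 200 in knockout 2 and 201 in wild type 1.

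Grin2a, the subunit that joins NMDA receptors as the brain matures, read 135, 182, 142 and 146 in knockouts 1 to 4, against 26.6 in wild type 1 and 126 in wild type 2 on its only probe set, 1421616_at. The groups did not overlap, but wild type 2 lay close below the lowest knockout and the gap came mainly from wild type 1, whose reading was under the added offset. The log2 fold change was 0.79 (SE 0.41), with an interval from -0.13 to 1.70 (limma adjusted p = 0.743). Leaving out wild type 1 gave 0.18, and leaving out wild type 2 gave 1.39. Grin2a lies on chromosome 16, as Meltf does, with 495 annotated genes between them in the RefSeq table of GRCm38.p6.

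Grin2b, which forms the slowly closing NMDA receptors of the forebrain, held the smallest p of the members. Its brightest probe set, 1457003_at, read 2081, 3039, 2648 and 2461 in knockouts 1 to 4, against 1244 in wild type 1 and 1696 in wild type 2. Every knockout lay above both wild types. The means were 2557 ± 398 (SD, n = 4) and 1470 ± 320 (SD, n = 2), 1.72-fold on the log2 scale with offset, a log2 fold change of 0.78 (SE 0.18) and an interval from 0.38 to 1.18. The unadjusted p was 0.00141 and the limma adjusted p 0.738, so it did not pass. The value lay between 0.57 and 0.999 with any 1 array left out, the lower end without wild type 1 and the upper without wild type 2.

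The other 3 probe sets of Grin2b did not show the difference. Grin2b probe set 2, 1442370_at, read 1976, 1996, 1498 and 881 in the knockouts and 1537 and 1507 in the wild types, with the wild types inside the knockout range. Its log2 fold change was -0.0081 (SE 0.28), and the sign turned without knockout 4, which had the lowest value, to 0.24. Grin2b probe sets 3 and 4 were dim, at the 42.2 and 33.8 percentiles of all probe sets, and gave 0.11 and 0.045 with standard errors of 0.37 and 0.50. Both were below 0 after quantile normalisation and after median centring.

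Grin2c, an NMDA subunit prominent in mature cerebellar granule cells, was low in 1 mouse. Its only probe set, 1449245_at, read 1092, 598, 959 and 1222 in knockouts 1 to 4, against 1181 in wild type 1 and 1090 in wild type 2. Knockout 2 lay below all others, at 0.540 of their mean, while the remaining 3 knockouts spanned both wild types. The log2 fold change was -0.26 (SE 0.25) (limma adjusted p = 0.834), and -0.061 without knockout 2.

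The same mouse was low in most marker genes of the cerebellum. Gabra6, whose GABA receptor subunit is made by granule cells, read 87.6 in knockout 2 and from 6938 to 15711 on the other arrays, and Pcp2, which is made by Purkinje cells, read 186 against 22260 to 34050. The summed signal of the 10 cerebellar markers was 9830 in knockout 2, 75221 to 106912 in the other knockouts and 96873 to 108772 in wild type, with none of them at 0 on any array. Zic1, at 7234, gave most of the sum in knockout 2. Zic4 was not lowest there, with 267 against 221 in knockout 1 and 231 in knockout 3, and the other markers were. Of the 21 subunit probe sets, knockout 2 had the lowest value for 3, the probe sets 1 and 3 of Gria4 and that of Grin2c. This is 14.3%, near the 16.4% of all probe sets for which it was lowest. Fewer cerebellar cells in the sample and less RNA per cell cannot be told apart in whole-tissue RNA. The part of the cerebellar signal in the Grin2c and Gria4 values was not tested beyond leaving that array out.

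Knockout 2 also had the highest value for 8 of 21 subunit probe sets, or 38.1%, where it was highest for 14.9% of all probe sets. These 8 were the brightest of Gria1, probe sets 1 and 2 of Gria2, both of Gria3, that of Grin2a, and probe sets 1 and 2 of Grin2b, so they come from 5 genes. Neurod6, a transcription factor gene of cortical and hippocampal excitatory neurons, was highest in the same mouse, at 4822 against 2646 to 3758 elsewhere. The summed signal of the 3 measured cortex and hippocampus markers was 8069 in knockout 2, 5031 to 5977 in the other knockouts and 5751 to 5827 in wild type. That of the 4 measured striatal markers was 13493 in knockout 2, 6796 to 11278 in the other knockouts and 7991 to 9060 in wild type. Not every marker was highest in knockout 2. Emx1 of the cortex list read 764 there and 796 in knockout 4. Drd2 of the striatal list read 1006 there and 1117 in knockout 3. The other measured markers of both lists were highest in knockout 2. The part of region content in the subunit values was not tested.

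**Figure D2:**
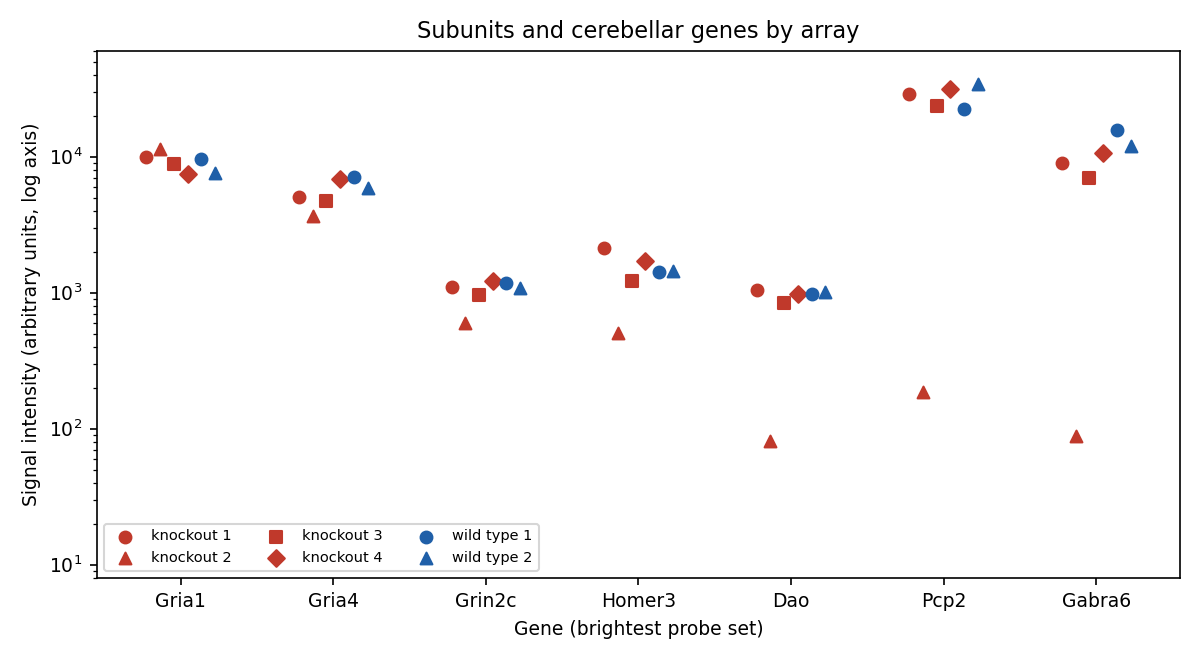
Signal intensity (log axis) of 3 subunits, of Homer3 and Dao and of the cerebellar markers Pcp2 and Gabra6 on each of the 6 arrays, with knockouts in red and wild types in blue. The red triangle, knockout 2, is the lowest point for every gene shown except Gria1, where it is the highest.

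Grin2c and probe sets 1 and 3 of Gria4 were lowest in knockout 2, while Gria4 probe set 2 was lowest in knockout 3. The stretches upstream of the starts of both genes are shown for comparison, from RefSeq on GRCm38.p6. They lie at chr11:115267244-115267493 and chr9:4796235-4796484, both on the minus strand, and cover the 250 bases before each annotated start, written 5′ to 3′. Capitals mark the GC box, GGGCGG, searched on both strands.
Grin2c: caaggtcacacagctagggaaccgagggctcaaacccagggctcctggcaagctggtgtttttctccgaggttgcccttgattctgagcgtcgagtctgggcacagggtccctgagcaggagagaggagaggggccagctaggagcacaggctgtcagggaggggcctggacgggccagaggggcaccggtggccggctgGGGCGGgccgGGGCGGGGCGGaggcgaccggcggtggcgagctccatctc
Gria4: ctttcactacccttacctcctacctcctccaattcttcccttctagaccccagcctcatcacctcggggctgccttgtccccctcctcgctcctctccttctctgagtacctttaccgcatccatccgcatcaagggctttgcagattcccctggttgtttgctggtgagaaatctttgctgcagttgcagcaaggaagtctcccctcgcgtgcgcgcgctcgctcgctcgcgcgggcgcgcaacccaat
The Grin2c stretch held 3 matches to the GC box near the start, a pair of them sharing a base, and the Gria4 stretch held 0, while 32.7% of the 32851 upstream stretches in the table held at least 1. The core of the nuclear factor I site, TTGGC, was found in neither, and 41.5% of all stretches held it. GC content was 68.8% for Grin2c and 58.8% for Gria4, against a median of 52.4%. A match is a run of letters and not a measured site.

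Grin2d, whose receptors close slowest of the NMDA family, differed between its dim and its bright probe set. The dim one, 1421393_at, read 68.5, 135, 111 and 221 in knockouts 1 to 4, against 26.5 in wild type 1 and 14.4 in wild type 2. Every knockout lay above both wild types, and both wild types lay under the offset of 49.6, so the offset set the size of the fold change. The log2 fold change was 1.33 (SE 0.40), with an interval from 0.45 to 2.21 (unadjusted p = 0.00722, limma adjusted p = 0.738). It was 0.58 with an offset 4 times larger, below Grin2b probe set 1 with 0.73 and Gria3 probe set 2 with 0.67, and 2.08 with one 0.25 times as large. Its place above those probe sets therefore rests on the offset. A 2-sided exact permutation test over the 15 splits gave p = 0.0667, the smallest it can give, which restates that the groups are fully separated.

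The bright Grin2d probe set, 1442328_at, read 1070, 1003, 978 and 996 in the knockouts and 855 and 1074 in the wild types. The knockouts lay between the wild types, and the log2 fold change was 0.073 (SE 0.16), with an interval from -0.28 to 0.42. It was -0.084 without wild type 1 and -0.14 with median centring.

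Grin3a, the subunit that lowers calcium entry, had a split among its 3 probe sets as well. The brightest, 1438866_at, read 1241, 924, 971 and 895 in knockouts 1 to 4, against 1200 in wild type 1 and 1205 in wild type 2. Knockouts 2, 3 and 4 lay below both wild types and knockout 1 above them, with a log2 fold change of -0.26 (SE 0.17) and a limma adjusted p of 0.778. Grin3a probe sets 2 and 3 gave 0.098 and 0.56 with standard errors of 0.17 and 0.44, and probe set 2 gave -0.12 with median centring. Of the 7 genes with 2 or more probe sets, only Gria1 and Grin2d had log2 fold changes of the same sign on all of them.

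**Figure D3:**
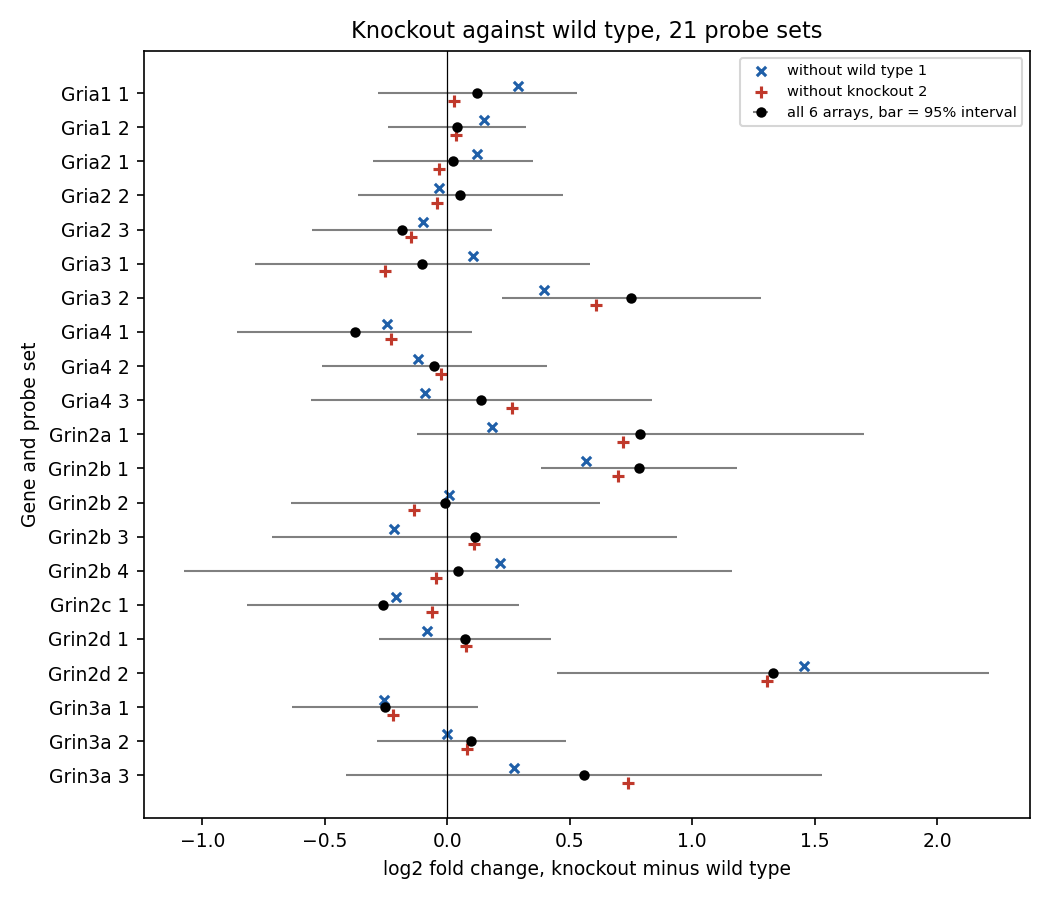
Log2 fold change, knockout minus wild type, of the 21 probe sets with 95% intervals (black points and grey bars), and the same value without wild type 1 (blue crosses) or without knockout 2 (red plus signs). The intervals of Gria3 2, Grin2b 1 and Grin2d 2 lie above 0, and the others hold it. Without wild type 1 the values of Gria3 2 and Grin2a 1 fall to 0.40 and 0.18.

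Array wild type 1 bore on several of these values. It had the lowest reading for 7 of 21 subunit probe sets, or 33.3%, and for 31.0% of all probe sets. Among the 7 were Gria3 probe set 2, Grin2a and Grin2b probe set 1. Without it 2 of the 21 probe sets, Grin2b probe set 1 and Grin2d probe set 2, had an unadjusted p below 0.05, at 0.0224 and 0.0266, as did 3.61% of all probe sets, and the median log2 fold change of the 21 was 0.0056. That fit has 1 wild-type mouse, so the spread comes from the knockouts alone and the wild type is assumed to vary like them. Without both wild type 1 and knockout 2 the log2 fold changes of this pair were 0.48 and 1.43, and 2 probe sets again had an unadjusted p below 0.05, against 3.48% of all, also with 1 wild-type mouse. Astrocyte markers on this array went both ways. Of 5, Gfap, Aqp4 and Aldh1l1 were highest on wild type 1, with Gfap, the astrocyte filament gene, at 3806 against 2678 in wild type 2 and 1819 to 2449 in the knockouts, while Slc1a3, a glutamate transporter gene, was lowest there, at 7061. The summed signal of the 5 was 34813 to 44292 in the knockouts and 43301 to 44660 in wild type, with none at 0, and its part in the subunit values was not tested.

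Genes that guide these receptors to the synapse were each taken on their brightest probe set. Of the brightest probe sets of all 18193 genes, 0% passed, 6.52% had an unadjusted p below 0.05, 4.07% with the knockout higher, and 53.6% had a log2 fold change above 0. Of 12 auxiliary subunits of AMPA receptors, limma called 0, with 1 at an unadjusted p below 0.05. Their median log2 fold change was 0.14, against 0.024 over all genes, and 9 of 12 were above 0. With median centring the median was -0.071 and 3 of 12 were above 0, and with wild type 1 left out 0 had an unadjusted p below 0.05. Cacng3, a regulatory protein of the stargazin family, read 1197, 1552, 1152 and 803 in the knockouts and 668 and 778 in the wild types, with a log2 fold change of 0.63 (SE 0.23). The groups did not overlap, and knockout 2 was again the highest. Cacng8 of the same family gave 0.57, while stargazin itself, Cacng2, gave -0.19 and Shisa6 -0.15.

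Scaffold and signalling proteins of the postsynaptic density were measured for 19 of 21 genes. The fit in limma called 0, while 3 had an unadjusted p below 0.05, all with the knockout higher, and the median log2 fold change was 0.10. With median centring the median was -0.11, 0 were higher and 1, Dlg4, was lower at that p, and without wild type 1, with 1 wild-type mouse left, 0 of the 19 had such a p. Dlgap2, which links receptor scaffolds to the Shank layer, read 982, 1654, 1208 and 1019 in the knockouts and 497 and 909 in the wild types. The groups did not overlap, the log2 fold change was 0.78 (SE 0.26), and it was 0.37 without wild type 1. Pick1, which binds AMPA receptor tails during their removal from the membrane, gave 0.44. Dlg4, the main scaffold of NMDA receptors, gave -0.26 (SE 0.17), or -0.017 when wild type 1 was left out and -0.50 when wild type 2 was. Homer2 gave -0.32, which was 0.082 without wild type 1.

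Among genes of RNA editing, co-agonist supply and the synaptic pentraxins, 9 of 10 were measured, limma called 0, 0 had an unadjusted p below 0.05, and the median log2 fold change was -0.10, or -0.31 with median centring. Dao, the glial enzyme of the cerebellum and hindbrain that degrades the co-agonist D-serine, read 1037, 81.6, 842 and 977 in knockouts 1 to 4, against 973 and 1003 in the wild types. Its log2 fold change of -0.79 was -0.056 without knockout 2, the only low array. Slc7a10, a carrier of D-serine and other small amino acids, gave -0.24, the glycine carrier Slc6a9 0.17 and the pentraxin Nptx2 0.22. The value of Slc6a9 was -0.048 with median centring and that of Nptx2 -0.18 without wild type 2. Homer3, a scaffold of Purkinje cell synapses named here after its values were seen, read 508 in knockout 2 and 1210 to 2128 elsewhere.

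**Figure D4:**
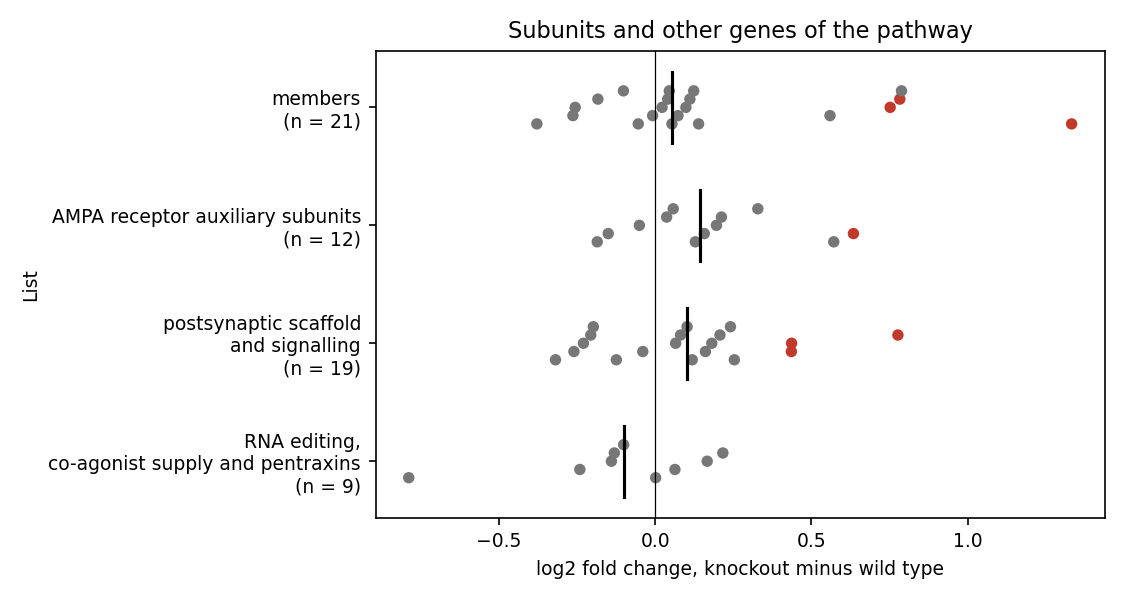
Log2 fold change, knockout minus wild type, of the 21 subunit probe sets and of 3 lists of other genes of the pathway, with 1 point per probe set and a black bar at the median. Red points have an unadjusted p below 0.05. All red points lie above 0, and none passed after adjustment.

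The genes most alike in pattern were sought among the 18184 other genes by the root mean square difference of log2 values, each centred on its own mean over the 6 arrays. For Grin2d probe set 2, which had the widest range of the members, the 5 closest were D630029K05Rik, Grhl3, Tmprss6, Clca3b and Dock2, with differences of 0.14 to 0.18. Clca3b, Grhl3, D630029K05Rik and Dock2 were as dim as the probe set itself, with no reading above 241. For Grin2c, chosen for this after its values were seen, the 5 closest were Plce1, Kit, Plscr1, Cep95 and Rnf182, with differences of 0.068 to 0.084. Kit, a receptor tyrosine kinase, read 1130 in knockout 2 and 1823 to 2016 on the other arrays. Both lists rest on 6 values per gene, and among 18184 genes close matches can arise by chance. Shared regulation was not tested.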

How the data were processed

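The authors deposited linear signal intensity values, 1 for each probe set of each array. The submitters' processing notes name GCOS 1.3 and nothing else. How probes were summarised, the detection calls and the scaling target are not given in the sources used. The 64 control rows of 45101 were left out. Symbols came from the platform annotation, updated by gene identifier to RefSeq of GRCm38.p6. An offset of 49.6, at the 20th percentile of all values, was added before log2, which understates changes of dim genes. Knockout minus wild type was fitted over all probe sets with lmFit and eBayes with an intensity trend (limma 3.58.1, R 4.3.3), with 4 residual and 5.91 prior degrees of freedom. P-values were 2-sided with Benjamini-Hochberg adjustment over the table and a threshold of 0.05. SD is of signals, and standard errors and intervals are of log2 fold changes. Tables and plots used Python 3.11.15. The fit was tested on simulated data.

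The members, lists, naming rule and alternatives were chosen with earlier results of these data known. Named were all member probe sets, the 2 highest and 2 lowest genes of each pathway list, 4 marker genes and the 5 genes most alike to the member of widest range. Some list genes, such as Shank2 and Nptxr, had no probe set of their own symbol. Alternatives were quantile normalisation, median centring, other offsets, a filter on the dimmest 40%, no intensity trend and leaving out arrays. The labels give no batch, scan date or pairing, and the number of arrays limits the precision.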

Additional observations from a re-analysis of the deposited data

Results flagged for a closer look

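In the group of 4 knockouts, the highest or lowest log2 value was tested against the rest for 37 probe sets with Dixon's ratio, which is the gap to the nearest value over the whole range. It exceeded the critical value of 0.829 for 5. Chance gives about 1 in 20 for values chosen blind, which these were not: Pcp2 and Gabra6 were chosen as markers with earlier results known, and Dao was named for a low fold change that knockout 2 sets. Knockout 2 stood apart for Pcp2, with a ratio of 0.943 and a signal of 186, for Dao, with 0.907 and 81.6, and for Gabra6, with 0.901 and 87.6. Knockout 1 stood apart for Gria4 probe set 2, with a ratio of 0.854 and a signal of 1010, and knockout 3 for Grin3a probe set 2, with 0.839 and 671. The Grin2c probe set was not among them.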

How the results depend on the processing

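In limma, alternatives that kept both wild types gave 2 to 5 subunit probe sets an unadjusted p below 0.05. The share of all probe sets in those alternatives was 5.78% to 8.76%. The 2 were among the 18 left by the filter on dim probe sets, or 11.1%, against 7.8% of all. The 5 of 21, or 23.8%, came with median centring, against 8.76% of all. The count of subunit probe sets passing an adjusted p of 0.05 in limma was 0 under every alternative run. That of the 40 pathway genes was 0 as well. Over all probe sets the count was 0 except without wild type 2, where it was 171, and leaving out 1 array thus gave 0 to 171. A fit without wild type 1 or 2 has 1 wild-type mouse, so only the knockouts give the spread, and the 171 are set against wild type 1, the array lowest for 31.0% of all probe sets. The median of the 40 pathway genes, 0.073, was -0.14 with median centring, with 9 above 0 instead of 25. The median log2 fold change of the 21 probe sets was 0.0056 to 0.11 with any 1 array left out. It was -0.16 with median centring, which moved the median of all probe sets from 0.078 to -0.14, and -0.0057 without both knockout 2 and wild type 1, an alternative chosen after seeing the data. The filter on dim probe sets left out Grin2a, Grin2b probe set 4 and Grin2d probe set 2. No paired analysis was possible because the replicate numbers are not from the labels and the labels tie no knockout to a wild type.

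Quantile normalisation turned the sign of Gria4 probe set 3 (-0.066) and of Grin2b probe sets 2 (0.0042), 3 (-0.12) and 4 (-0.18). Median centring, a shift of -0.21 for every probe set, turned that of Gria1 probe sets 1 (-0.091) and 2 (-0.17), Gria2 probe sets 1 (-0.19) and 2 (-0.16), Gria4 probe set 3 (-0.075), Grin2b probe sets 3 (-0.10) and 4 (-0.17), Grin2d probe set 1 (-0.14), Grin3a probe set 2 (-0.12) and Slc6a9 (-0.048). The smaller offset turned Grin2b probe set 4 (-0.0080). Without both arrays the turned values were Gria2 probe set 2 (-0.13), Grin2b probe set 3 (-0.22), Grin2d probe set 1 (-0.080), Grin3a probe set 2 (-0.017) and Slc7a10 (0.018). With 1 array left out at a time, signs turned for Gria1 probe sets 1 (-0.043 to 0.29) and 2 (-0.071 to 0.15), Gria2 probe sets 1 (-0.076 to 0.12) and 2 (-0.041 to 0.19), Gria3 probe set 1 (-0.31 to 0.15), Gria4 probe sets 2 (-0.19 to 0.0100) and 3 (-0.093 to 0.37), Grin2b probe sets 2 (-0.14 to 0.24), 3 (-0.22 to 0.44) and 4 (-0.27 to 0.34), Grin2d probe set 1 (-0.084 to 0.23), Grin3a probe set 2 (-0.00052 to 0.20), Homer2 (-0.72 to 0.082), Neurod6 (-0.25 to 0.033), Nptx2 (-0.18 to 0.62) and Pcp2 (-2.34 to 0.0085). The cause of these turns was not tested. Every one of these values has a main log2 fold change within 2 standard errors of 0.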
